A study of Mus musculus with 31 samples.

Results

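MC-38 tumors taken 3 h after a single dose of 15 Gy radiation therapy (RT) were compared with unirradiated MC-38 tumors across all genes. The members are the libraries whose labels place them in MC-38 RT 3 h (4 mice) or MC-38 Control (4 mice), which makes 8 of the 31 libraries of the series. MC-38 is a mouse colon cancer cell line, and messenger RNA of whole tumor tissue was sequenced, 1 library per mouse. The study asked which early events after RT of a tumor precede inflammation, and it also took MC-38 tumors at 12 h and 24 h and RM-9 prostate tumors at the same times.

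Both groups were wild-type (WT) C57BL/6 mice that had received MC-38 cells under the skin of the right hind leg and carried tumors of 8 mm diameter. The study used male mice, and its methods give the strain as C57BL/6J. RT 3 h tumors received 15 Gy in a single local dose and were taken 3 h later, and Control tumors received no treatment and carried the same 3 h time point in their labels. The model is a transplanted line under the skin of the leg, so each library holds RNA of the injected cells and of the host's own cells. Defining markers of colon epithelium were nearly absent. Cdx1 and Cdx2 were at 0 in all 8 libraries, and Epcam, Vil1, Krt8, Krt18, Krt19, Krt20 and Muc2 had a mean under 0.5 TPM (a level per transcript length, scaled to the same total in each library). The summed level of the 12 colon markers was 1.89 to 3.57 TPM in Control and 2.22 to 5.00 TPM in RT 3 h tumors, so the label was not borne out by these markers.

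Ionizing radiation breaks DNA, and the kinases ATM and ATR signal the breaks to the transcription factor p53, which Mdm2 keeps low in unstressed cells. Stabilized p53 raises genes that stop the cell cycle, such as Cdkn1a, and genes that act in cell death, and it raises Mdm2 itself as a feedback. Cells with damaged DNA are held at the G2/M checkpoint before mitosis, and the genes that drive mitosis are transcribed late in the cycle and are low in cells that do not reach it. Immune cells, fibroblasts and vessels of the tumor add their own RNA to such a sample.

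The libraries differed in ways that bear on every value. Depth was 21.4 to 24.3 M reads, and library pairs correlated with r between 0.924 and 0.985 across genes. Mitochondrially encoded genes held 40.6% of TPM in Control mouse 1 and 25.7 to 31.04% in the other Control mice, against 22.6 to 31.4% in RT 3 h mice (31.3% ± 6.57 and 27.2% ± 3.93, SD, n = 4, exact permutation p = 0.4). The 12 skeletal muscle markers summed to 13773 TPM in Control mouse 1 and to 24.0 to 2246 TPM in the other Control mice, against 99.6 to 3633 TPM after RT. The median level over genes was higher by 0.21 on the log2 scale in RT 3 h than in Control libraries (exact permutation test, two-sided, p = 0.171, smallest possible p 0.0286), and the part of the mitochondrial and muscle transcripts in this shift was not tested. The comparison was therefore also made after median-ratio scaling, which divides each library by its median ratio to a common reference and removes the shift of the median gene. Values below are called TPM as deposited or scaled TPM accordingly, and a log2 fold change is a difference of log2(value + 0.5).

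**Figure D1:**
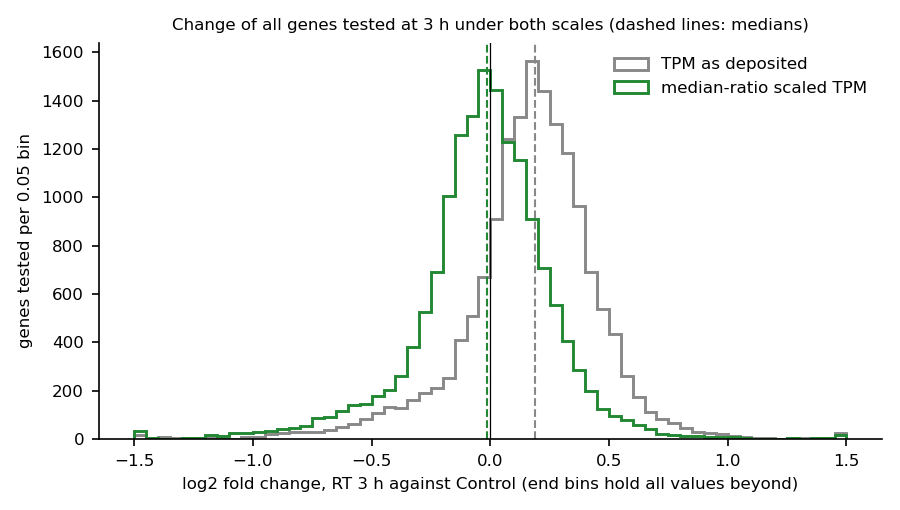
Distribution of the log2 fold change of RT 3 h against Control over the 15698 genes tested, with TPM as deposited (grey) and with median-ratio scaled TPM (green), in bins of 0.05; dashed lines mark the medians. The median moved from 0.19 as deposited to -0.01 with scaled TPM.

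Few genes passed the test at 3 h. Those that were higher after RT included the p53 targets Mdm2, Trp53inp1 and Zmat3, and those that were lower included genes of mitosis, among them Cdc20 and Ccnb2, and the leukocyte receptors Lair1 and Tlr1. With TPM as deposited, 8 of 15698 genes tested were higher (0.051%) and 2 were lower (0.0127%) at an adjusted p under 0.05 (limma over the 16 MC-38 libraries, Benjamini-Hochberg). With scaled TPM, 43 genes were higher (0.274%) and 56 were lower (0.357%), and 7 genes were called on both scales. At an unadjusted p under 0.05, 18.1% of genes were higher and 1.84% lower as deposited, and 7.82% and 9.15% with scaled TPM. The median log2 fold change was 0.19 as deposited, with 79.5% of genes above 0, and -0.01 with scaled TPM. Every RT 3 h mouse lay above every Control mouse for 7.2% of genes as deposited and below for 0.975%, and for 5.68% and 5.03% with scaled TPM.

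The counts depended on nearly every single mouse. Without Control mouse 1, 4 of the 10 genes called as deposited and 12 of the 99 called with scaled TPM passed. Leaving out any 1 of Control mice 1, 2 and 4 and RT mice 1, 2 and 3 left 1 to 5 of the 10 and 8 to 22 of the 99. Without RT mouse 4, which differed from the other RT mice in the mitotic genes described below, 7 of the 10 and 62 of the 99 passed, and 117 genes passed in all with scaled TPM. Without Control mouse 3, 398 genes were higher and 28 lower as deposited. With only the 8 libraries of both groups in the fit, 2 genes passed as deposited, 1 of them among the 10, and 12 passed with scaled TPM, 10 of them among the 99.

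The p53 targets Mdm2, Trp53inp1 and Cdkn1a rose. Mdm2, the ubiquitin ligase that degrades p53 (ENSMUSG00000020184), stood at 12.2, 18.4, 18.4 and 13.6 TPM as deposited in Control mice and at 27.8, 31.7, 38.2 and 38.3 TPM in RT 3 h mice. Its log2 fold change was 1.11 ± 0.15 (SE, adjusted p = 0.0121, limma). The groups did not overlap, and with scaled TPM the change was 0.89 ± 0.10 (adjusted p = 0.00214, limma), past the threshold under each of the 17 alternatives tried on that scale. Trp53inp1, a p53 target that acts in cell death and autophagy (ENSMUSG00000028211), was at 1.36, 1.57, 2.03 and 1.54 TPM in Control mice and at 5.88, 5.08, 6.36 and 3.93 TPM in RT 3 h mice. Its log2 fold change was 1.44 ± 0.17 (SE, adjusted p = 0.00561, limma), with RT mouse 4 the lowest of the irradiated mice. Cdkn1a encodes p21, the inhibitor of cyclin-dependent kinases (ENSMUSG00000023067), and was at 52.8, 65.3, 62.4 and 52.4 TPM in Control mice and at 108, 92.8, 120.4 and 86.4 TPM in RT 3 h mice. As deposited its log2 fold change was 0.80 ± 0.12 (adjusted p = 0.0195, limma), and with scaled TPM it was 0.58 ± 0.15 (adjusted p = 0.0828, limma). On the scaled values Control mouse 1 with 80.8 exceeded RT mouse 4 with 76.6, and of these 2 scales Cdkn1a passed as deposited alone.

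The other 5 genes that rose as deposited were Tnfsf4, Zswim4, Fos, Nfkb2 and Tmem54. Tnfsf4, the ligand OX40L that costimulates T cells, was at 0.365, 0.467, 0.575 and 0.311 TPM in Control mice and at 3.27, 1.64, 2.05 and 1.46 TPM in RT 3 h mice. Its log2 fold change was 1.45 ± 0.19 (SE, adjusted p = 0.0106, limma), and all its values were low. Zswim4, a zinc finger SWIM protein, was at 8.73, 13.6, 15.8 and 13.6 TPM in Control mice and at 23.7, 23.1, 26.0 and 23.5 TPM in RT 3 h mice. Its groups did not overlap, and its scaled log2 fold change of 0.69 ± 0.08 (adjusted p = 0.00214, limma) passed under each of 17 alternatives. Fos, the immediate early subunit of the transcription factor AP-1, was at 7.40, 10.5, 8.42 and 9.53 TPM in Control mice and at 17.5, 15.7, 21.7 and 13.96 TPM in RT 3 h mice (log2 fold change 0.90 ± 0.15, adjusted p = 0.0366, limma). Nfkb2, which encodes the p100 and p52 subunit of NF-kB, rose from 96.3 ± 13.7 to 149 ± 16.8 TPM (SD, n = 4) and did not overlap between groups. Tmem54, a membrane protein, rose from 0.519 ± 0.124 to 1.53 ± 0.219 TPM (SD, n = 4).

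**Figure D2:**
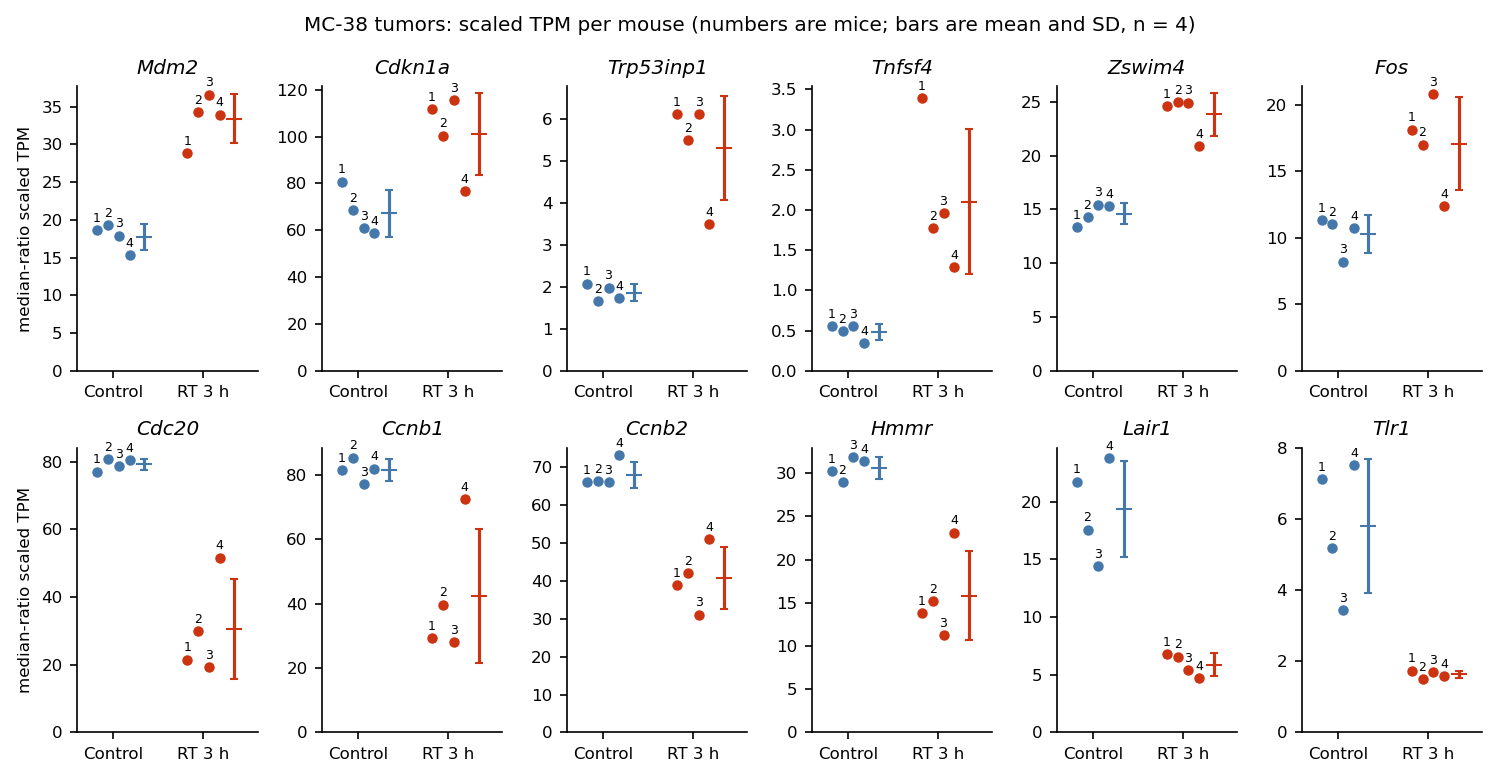
Median-ratio scaled TPM of 12 genes in each of the 4 Control mice (blue) and 4 RT 3 h mice (red), with mouse numbers beside the points and mean and SD at the right of each group. The 6 genes of the upper row were higher after RT and the 6 of the lower row lower. RT mouse 4 lies nearest to the Control mice for Cdkn1a, Trp53inp1, Tnfsf4, Zswim4, Fos, Cdc20, Ccnb1, Ccnb2 and Hmmr.

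p53 targets were grouped by role. With scaled TPM 0.274% of all genes tested passed as higher and 0.357% as lower. These shares also stand beside the called counts of the lists that follow. Of 17 tested targets of arrest and feedback, 3 rose with scaled TPM (Mdm2, Trp53inp1 and Zmat3) and 0 fell, with a list median of 0.21 beside -0.01 for all genes. At an unadjusted p under 0.05, 6 of the 17 were higher and 1 lower (7.82% and 9.15% of all genes were). Zmat3, an RNA-binding p53 target, went from 3.13 ± 0.193 to 4.44 ± 0.107 scaled TPM (SD, n = 4, log2 fold change 0.44 ± 0.08, adjusted p = 0.0249, limma). Other members did not pass. Ccng1, Phlda3, Btg2 and Plk3, all well known p53 targets, had scaled log2 fold changes of 0.23, 0.21, 0.21 and 0.18, and Psrc1 had -0.63 (adjusted p = 0.113, limma). Of 11 tested targets of cell death, 5 were higher and 0 lower at an unadjusted p under 0.05. After adjustment 1 rose, Bid, a BH3-only protein of the BCL2 family. Bid was at 33.9, 34.4, 37.4 and 33.9 scaled TPM in Control mice and at 39.2, 43.0, 44.6 and 45.3 in RT 3 h mice (log2 fold change 0.30 ± 0.06, adjusted p = 0.0387, limma). Ei24 had 0.27 and did not pass, and the death effectors Bax, Bbc3 and Pmaip1 had -0.04, 0.06 and 0.28. Of 13 tested targets of repair and metabolism, 0 passed in either direction (limma). At an unadjusted p under 0.05, 5 of them were higher and 1 lower (7.82% and 9.15% of all genes were). The 2 with the smallest p were Polk, a translesion polymerase, with 0.48 and Dcxr, a carbonyl reductase, with 0.68.

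The promoters of Mdm2 and Cdkn1a are shown because both are well known p53 targets that passed as deposited, from 250 bases before to 50 after the annotated start (RefSeq, build GRCm38.p6), with decamers that match the p53 consensus in capitals, searched on both strands. Such a decamer was found in 6 of the 14 arrest and feedback genes with a listed promoter (42.9%) and in 8.14% of the 10073 tested genes with one. Among the 43 genes higher with scaled TPM, it was found in 1 of the 36 with a listed promoter (2.78%). A match describes the letters and does not mark a bound site.
Mdm2, chr10:117710709-117711008, minus strand: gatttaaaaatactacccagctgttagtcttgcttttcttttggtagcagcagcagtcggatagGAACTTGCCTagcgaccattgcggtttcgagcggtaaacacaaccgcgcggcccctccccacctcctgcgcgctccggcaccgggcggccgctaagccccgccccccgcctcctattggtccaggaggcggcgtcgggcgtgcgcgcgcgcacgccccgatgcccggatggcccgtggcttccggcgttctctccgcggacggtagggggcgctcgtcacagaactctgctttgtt
Cdkn1a, chr17:29090729-29091028, plus strand: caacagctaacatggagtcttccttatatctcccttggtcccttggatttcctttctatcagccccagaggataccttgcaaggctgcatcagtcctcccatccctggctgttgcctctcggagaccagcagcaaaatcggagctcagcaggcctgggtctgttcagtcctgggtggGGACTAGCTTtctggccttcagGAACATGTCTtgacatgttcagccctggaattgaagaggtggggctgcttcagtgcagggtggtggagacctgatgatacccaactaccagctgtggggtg
The Mdm2 window held 1 decamer and the Cdkn1a window 2, and Cdkn1a has 2 promoters listed, of which the upstream one is printed.

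Genes of the DNA damage checkpoint, of repair and of DNA replication rose slightly or did not pass. Clspn, the adaptor that lets ATR activate Chek1, was the 1 of 24 tested checkpoint genes that rose. It went from 15.5, 16.2, 17.0 and 17.3 scaled TPM in Control mice to 24.4, 24.5, 22.7 and 20.5 in RT 3 h mice (log2 fold change 0.46 ± 0.09, adjusted p = 0.029, limma), without overlap. The kinase genes Atm, Atr, Chek1 and Chek2 had log2 fold changes of 0.47, 0.03, 0.14 and -0.14, none past the threshold. H2afx, the histone variant phosphorylated at breaks, had -0.57 (adjusted p = 0.0567, limma). Of 25 tested genes of homologous recombination and the Fanconi anemia pathway, 23 had a scaled log2 fold change above 0 and the median was 0.33. Only Blm, a RecQ helicase, passed, at 9.36, 12.5, 11.3 and 9.77 scaled TPM in Control mice and 14.1, 16.9, 14.3 and 16.2 in RT 3 h mice (log2 fold change 0.50 ± 0.10, adjusted p = 0.0407, limma). Brca2, Bard1 and Brca1 had 0.48, 0.35 and 0.47 and did not pass. In this list 11 members had an unadjusted p under 0.05 and a rise, which is 44.0% beside 7.82% of all genes.

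Among end joining genes 0 of 13 passed (limma), with a median of 0.12 and 3 higher at an unadjusted p under 0.05, beside 7.82% of all genes. Among base and nucleotide excision repair genes 0 of 22 passed, with a median of 0.08 and 2 higher at that p. In the end joining list Poll and Polq had 0.30 and 0.37, and in the excision list Nthl1 and Ogg1, which remove oxidized bases, had 0.24 and 0.16. Of 43 tested genes of DNA replication and nucleotide supply, E2f1 and Pola2 rose. E2f1, a transcription factor of S phase entry, was at 28.8, 34.96, 32.5 and 32.2 scaled TPM in Control mice and at 41.0, 43.3, 41.8 and 37.6 in RT 3 h mice (log2 fold change 0.35 ± 0.06, adjusted p = 0.029, limma). Pola2, a subunit of DNA polymerase alpha, rose from 61.4 ± 4.04 to 76.8 ± 3.58 scaled TPM (SD, n = 4). In that list 18 members were higher at an unadjusted p under 0.05 (7.82% of all genes were) and 0 lower, and 16 were higher without overlap (5.68% of all genes were), with Pcna, Mcm4 and Cdc45 among them at 0.24, 0.25 and 0.28. Cdk2, the kinase of S phase entry, rose by 0.43 and Cdkn2d, an inhibitor of Cdk4 and Cdk6, fell by 0.36 among the 17 tested G1 cyclins and inhibitors. The study's own list of 88 genes of the cellular response to DNA damage had 3 higher and 2 lower genes and a median of 0.12, and since the study chose it on these samples it is not independent evidence.

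**Figure D3:**
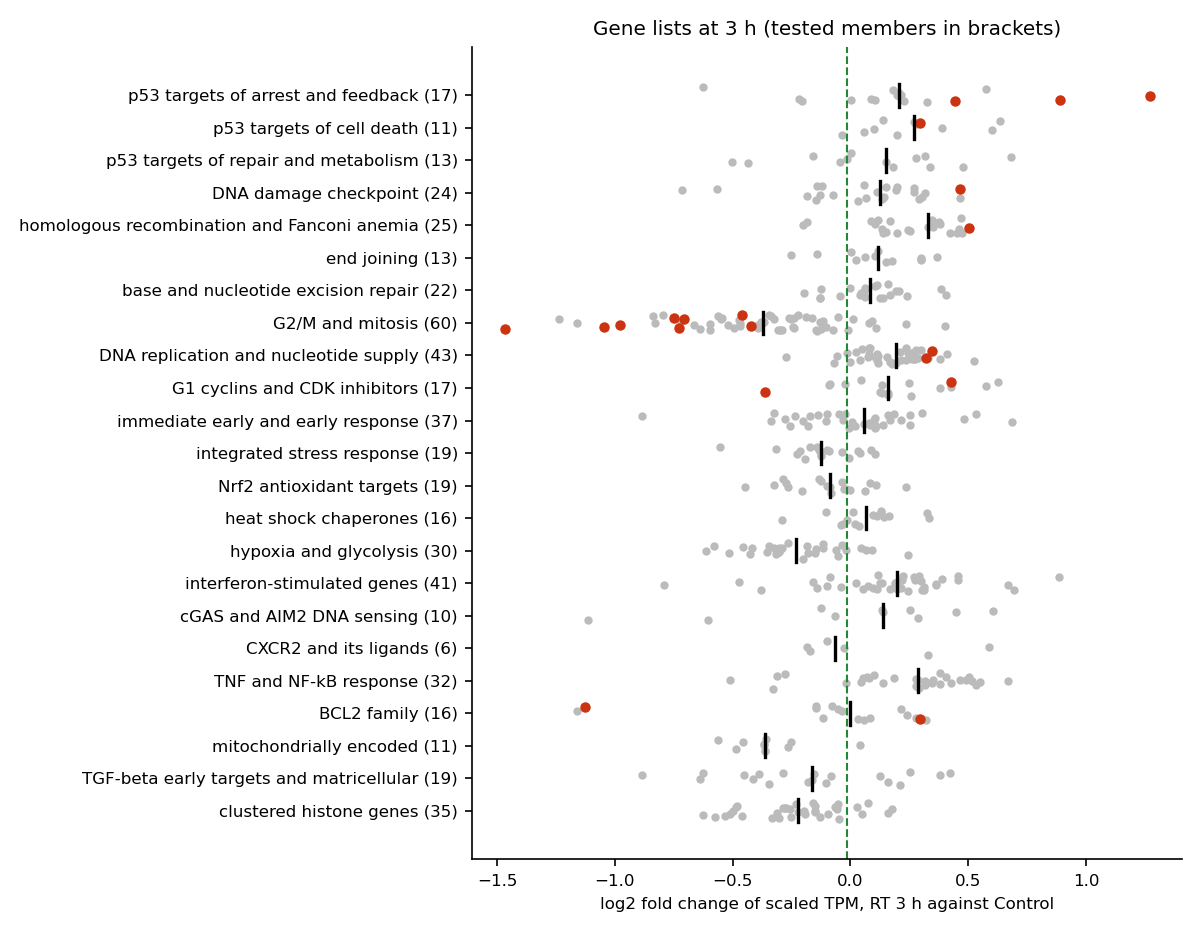
Scaled log2 fold change of every tested member of each gene list, RT 3 h against Control (grey points, adjusted p of at least 0.05; red points, under 0.05; black bars, list medians; green dashed line, median of all genes). The G2/M and mitosis list lies furthest to the left among cell cycle lists, with 8 red points below 0.

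Mitotic genes fell in the scaled comparison. Of 60 tested genes of G2/M and mitosis, 8 were lower and 0 higher at an adjusted p under 0.05, 54 had a log2 fold change below 0, and the median was -0.37 beside -0.01 for all genes. At an unadjusted p under 0.05, 38 of 60 were lower (9.15% of all genes were). As deposited, the list median was -0.16 beside 0.19 for all genes, and 0 members passed the adjusted threshold. On that scale 11 were lower and 2 higher at an unadjusted p under 0.05 (1.84% and 18.1% of all genes were).

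Cdc20, the activator of the anaphase-promoting complex (ENSMUSG00000006398), fell most in the list. It stood at 77.1, 80.8, 78.7 and 80.5 scaled TPM in Control mice and at 21.5, 29.8, 19.3 and 51.7 in RT 3 h mice. Its log2 fold change was -1.47 ± 0.22 (SE, adjusted p = 0.0131, limma), and as deposited it was -1.25 (adjusted p = 0.0673, limma). Ccnb1, the cyclin B that activates Cdk1 at mitotic entry, was at 81.5, 85.3, 77.1 and 82.0 scaled TPM in Control mice and at 29.2, 39.7, 28.0 and 72.6 in RT 3 h mice. Ccnb2, a second mitotic cyclin B, was at 66.2, 66.3, 66.2 and 73.2 in Control mice and at 38.9, 42.1, 31.1 and 51.1 in RT 3 h mice. The log2 fold changes of Ccnb1 and Ccnb2 were -1.04 ± 0.21 and -0.75 ± 0.12 (adjusted p = 0.04 and 0.0188, limma), and neither gene's groups overlapped. Hmmr, a spindle and hyaluronan binding protein, fell from 30.6 ± 1.29 to 15.8 ± 5.13 scaled TPM (SD, n = 4), and Tpx2, the activator of Aurka on the spindle, from 102.8 ± 3.55 to 64.6 ± 17.96. Kif22, Cdca8 and Nek2 fell by 0.73, 0.46 and 0.42 on the log2 scale. Plk1 and Aurka, kinases of mitotic entry, had -1.24 and -1.16 and did not pass (adjusted p = 0.0618 and 0.0597, limma). Cdc25c, the phosphatase that activates Cdk1, had -0.71 (adjusted p = 0.0545, limma) and belongs to the checkpoint list. Cdk1 itself had -0.01, and Aurkb and Spag5 had 0.24 and 0.40.

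RT mouse 4, singled out after its values had been seen, did not share the low mitotic levels. The list median of the scaled log2 difference from the Control mean was -0.54, -0.32, -0.58 and 0.03 in RT mice 1 to 4 and lay between -0.05 and 0.04 in Control mice. RT mouse 4 had the highest value of the 4 RT mice for 57 of the 60 genes. All 4 RT mice lay below every Control mouse for 15 of the 60 genes (5.03% of all genes did). No such count is given for RT mice 1, 2 and 3 alone, since RT mouse 4 was picked on these same values. Aurka stood at 28.7, 41.5, 26.5 and 88.1 scaled TPM in RT mice beside 85.7 to 98.7 in Control mice. Without RT mouse 4, 32 of the 60 genes passed, and without Control mouse 1, 1 did, while leaving out Control mouse 4 or RT mouse 2 left 0. The same RT mouse 4 had list medians of 0.20, 0.16 and 0.08 for p53 arrest, p53 death and replication genes, where the other RT mice had 0.18 to 0.33, 0.27 to 0.38 and 0.16 to 0.26. Its Mdm2 level of 33.9 scaled TPM lay within the 28.9 to 36.6 of the other RT mice. For other genes that rose, namely Cdkn1a, Trp53inp1, Fos, Tnfsf4 and Zswim4, it had the lowest scaled level of the 4 RT mice (Zswim4 20.9, others 24.6 to 24.99). RT mouse 4 also had the lowest list medians of the 4 RT mice for macrophage markers (-1.05, lowest mouse for 12 of 12), T cell markers (-1.09, 9 of 10) and mitochondrially encoded genes (-0.88, 11 of 11), and their part in the mitotic values of this mouse was not tested.

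**Figure D4:**
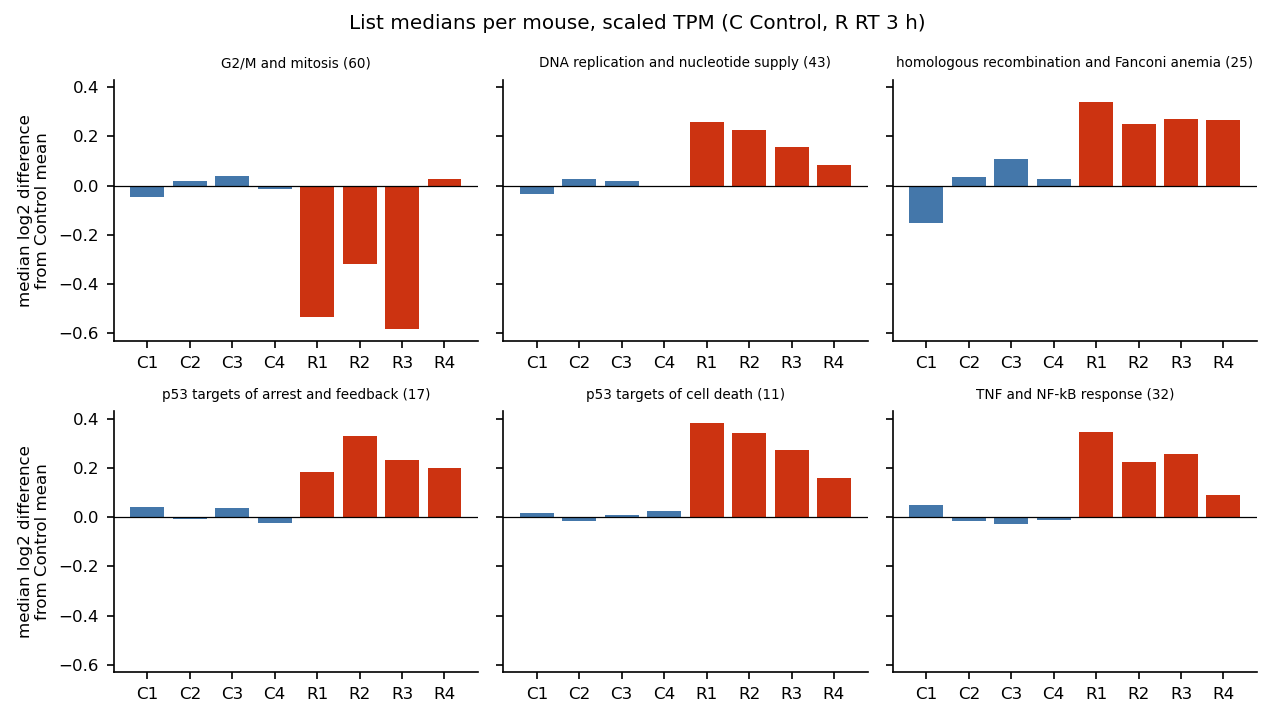
Median over list members of the log2 difference of scaled TPM from the Control mean, for each Control mouse (C1 to C4, blue) and RT 3 h mouse (R1 to R4, red), with the number of tested members in brackets. In the G2/M and mitosis panel, R1, R2 and R3 lie at -0.54, -0.32 and -0.58 and R4 at 0.03.

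The promoters of the 3 mitotic genes Cdc20, Ccnb1 and Ccnb2 are shown because such promoters share a pair of motifs, the CCAAT box bound by NF-Y and the cell cycle homology region (CHR, TTTGAA or TTTAAA), both in capitals. Ccnb1 and Ccnb2 were added to the printed genes after their values had been seen. Sequences are from RefSeq, GRCm38.p6, from 250 bases before to 50 after the start.
Cdc20, chr4:118437294-118437593, minus strand: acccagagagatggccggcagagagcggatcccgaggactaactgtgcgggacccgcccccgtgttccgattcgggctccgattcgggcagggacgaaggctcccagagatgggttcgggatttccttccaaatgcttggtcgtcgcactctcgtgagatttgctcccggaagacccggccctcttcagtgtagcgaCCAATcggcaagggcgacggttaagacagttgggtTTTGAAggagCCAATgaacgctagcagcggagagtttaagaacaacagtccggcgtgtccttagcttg
Ccnb1, chr13:100786437-100786736, minus strand: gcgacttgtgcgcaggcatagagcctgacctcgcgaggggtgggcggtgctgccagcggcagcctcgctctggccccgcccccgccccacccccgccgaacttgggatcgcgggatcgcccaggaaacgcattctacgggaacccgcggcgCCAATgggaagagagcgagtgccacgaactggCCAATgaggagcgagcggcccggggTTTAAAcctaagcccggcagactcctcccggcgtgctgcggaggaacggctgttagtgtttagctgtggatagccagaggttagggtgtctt
Ccnb2, chr9:70421505-70421804, minus strand: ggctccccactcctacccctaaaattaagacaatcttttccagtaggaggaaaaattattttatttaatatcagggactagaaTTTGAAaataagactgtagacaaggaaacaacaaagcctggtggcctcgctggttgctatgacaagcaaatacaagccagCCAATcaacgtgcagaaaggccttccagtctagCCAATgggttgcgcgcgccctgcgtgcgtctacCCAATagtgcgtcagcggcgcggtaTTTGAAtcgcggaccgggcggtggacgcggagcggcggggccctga
The windows held 2, 2 and 3 CCAAT boxes and 1, 1 and 2 CHR motifs. Over the 51 members of the G2/M and mitosis list with a listed promoter, 80.4% held CCAAT, 74.5% held a CHR and 66.7% held both, against 43.2%, 22.6% and 10.7% of the 10073 tested genes with a promoter. Both strands were searched. Among the 8 members that fell, 7 had a promoter and 6 of these held both motifs (85.7%), and among the other members 28 of 44 did (63.6%). In the same 51 promoters the cAMP response element TGACGTCA was found in 5.88% and the AP-1 site TGANTCA in 1.96%, beside 3.50% and 6.68% of all, and the core of the interferon response element in 5.88% beside 4.00%.

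Several pseudogenes that were called resembled mitotic genes and could have shared their reads. Gm5593, Gm12856 and RP23-158A20.2 matched Ccnb1 over 94.4 to 99.2% of bases, Gm15452 and Gm12891 matched Cks2, a subunit of cyclin-dependent kinases, over 100% and 98.3%, and Gm7856 matched Cdc20 over 93.7%. Gm7367 and RP24-324L19.3 matched Ubald2 and Pkm. Gm6211 matched the pseudogene Olfr1267-ps1 over part of its length with 87.6% identity. All 9 are among the 56 genes counted as lower with scaled TPM, and their calls are uncertain. Cks2 itself fell from 87.7 ± 4.74 to 52.4 ± 12.7 scaled TPM (SD, n = 4), and Bora, a mitotic cofactor of Aurka, and Arhgef39 fell by 0.79 and 1.06 on the log2 scale, genes that were named after their values had been seen.

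Several of the other genes that fell encode receptors of immune cells. Lair1, an inhibitory collagen receptor of leukocytes (ENSMUSG00000055541), was at 14.2, 16.7, 14.8 and 21.1 TPM as deposited in Control mice and at 6.56, 6.07, 5.64 and 5.31 in RT 3 h mice (log2 fold change -1.42 ± 0.24, adjusted p = 0.0366, limma). Tlr1, a receptor for bacterial lipopeptides, was at 4.65, 4.93, 3.52 and 6.69 TPM in Control mice and at 1.67, 1.39, 1.77 and 1.78 in RT 3 h mice (log2 fold change -1.31 ± 0.21, adjusted p = 0.0366, limma). Neither gene's groups overlapped, and the 4 RT mice were close to each other. Gpr65, a proton-sensing receptor of leukocytes, fell from 11.1 ± 2.65 to 3.85 ± 1.07 scaled TPM and Tlr9, the receptor for CpG DNA, from 7.88 ± 1.96 to 3.07 ± 0.424 (SD, n = 4). Fam26f, Gpr31b, Gpr35, Bcl2a1b and Tifab fell by 1.57, 1.33, 1.14, 1.13 and 1.12 on the log2 scale, and Bcl2a1b shares sequence with other Bcl2a1 genes. Of genes named after their values had been seen, the leukocyte genes Cd180 and Gpr84 fell by 1.08 and 1.10, and the cytoskeletal gene Vim fell from 1295 ± 126 to 911 ± 58.8 scaled TPM. Prl2c1 was at 15.6, 28.7, 16.8 and 27.8 TPM as deposited in Control mice and was listed at 0 in all 4 RT 3 h mice, and it belongs to a family of closely related Prl2c genes with which it may share reads.

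The macrophage, T cell and red blood cell markers lay lower in the same comparison. With scaled TPM most endothelial, natural killer cell, neutrophil and fibroblast markers also lay below 0, and dendritic and B cell markers were mixed. With TPM as deposited, the 12 macrophage markers summed to 1135 to 1896 TPM in Control and 839 to 1399 TPM in RT 3 h mice, with all 12 scaled log2 fold changes below 0, a median of -0.56, 5 lower at an unadjusted p under 0.05 (9.15% of all genes were) and 0 past the adjusted threshold (limma), and as deposited 3 were lower (1.84% of all genes were). C1qc, a complement subunit of macrophages, had -0.83 (adjusted p = 0.166, limma). The 10 T cell markers summed to 26.7 to 38.5 and 18.1 to 30.95 TPM, with all 10 below 0 and 7 lower at an unadjusted p under 0.05 with scaled TPM, and 3 lower as deposited. No macrophage or T cell marker was at 0 in all libraries. The red blood cell markers summed to 194, 215, 83.2 and 86.1 TPM in Control mice 1 to 4 and to 73.4 to 87.4 TPM in RT 3 h mice. All 4 tested were lower at an unadjusted p under 0.05 on both scales, yet Control mice 3 and 4 lay within the RT range of this sum. The fibroblast markers summed to 579 to 975 and 414 to 810 TPM, the endothelial markers to 85.9 to 103 and 82.3 to 86.1 TPM and the neutrophil markers to 31.2 to 45.8 and 35.2 to 44.7 TPM. With scaled TPM 7 of 9 fibroblast, 9 of 9 endothelial, 7 of 9 neutrophil and 7 of 7 natural killer cell markers tested lay below 0. Of these 0, 1, 3 and 0 were lower at an unadjusted p under 0.05 (9.15% of all genes were). As deposited 6, 9, 6 and 5 markers of these lists lay below 0. The dendritic cell markers summed to 11.2 to 13.7 and 12.5 to 15.0 TPM, and of 3 tested dendritic and 4 tested B cell markers 1 each was higher and 0 lower at that p. In bulk tissue, fewer cells of a type and less RNA per cell cannot be told apart, and the part of these markers in the receptor falls was not tested. Without Control mouse 1 the scaled log2 fold changes of Lair1 and Tlr1 were -1.57 and -1.40 and neither passed (adjusted p = 0.0632 and 0.0529, limma).

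Few inflammatory genes passed at 3 h. Of 32 tested genes of the TNF and NF-kB response, Nfkb2 rose as deposited and 0 passed with scaled TPM, where the median was 0.29 and 13 were higher at an unadjusted p under 0.05, beside 7.82% of all genes. As deposited the median was 0.50, and 23 were higher and 0 lower at that p (18.1% and 1.84% of all genes were). Relb, the partner of p52, was at 27.2, 22.3, 25.03 and 26.2 scaled TPM in Control mice and at 32.2, 35.7, 33.8 and 34.1 in RT 3 h mice, which did not overlap but did not pass (log2 fold change 0.43 ± 0.10, adjusted p = 0.0663, limma). Nfkbia, the NF-kB inhibitor, and Il6 had 0.52 and 0.67 without passing. Of 41 tested interferon-stimulated genes 0 passed on either scale (limma), with a median of 0.20 with scaled TPM and 0.42 as deposited. At an unadjusted p under 0.05, 9 were higher and 1 lower with scaled TPM (7.82% and 9.15% of all genes were). As deposited 25 were higher and 1 lower at that p (18.1% and 1.84% of all genes were). The 2 interferon-stimulated genes with the smallest p with scaled TPM were ligands of Cxcr3. Cxcl10 was at 945, 975, 1016 and 871 scaled TPM in Control mice and at 1651, 1508, 1381 and 1516 in RT 3 h mice, with no overlap (log2 fold change 0.67 ± 0.19, adjusted p = 0.11, limma). Cxcl11 went from 15.0 ± 2.25 to 28.0 ± 2.48 scaled TPM (SD, n = 4, adjusted p = 0.0634, limma).

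The DNA sensing genes and the CXCR2 ligands, which the study followed, had 0 members past the threshold on either scale (limma). With scaled TPM 3 of the 10 DNA sensing genes were higher and 2 lower at an unadjusted p under 0.05 (7.82% and 9.15% of all genes were), and 0 of the 6 genes of Cxcr2 and its ligands were either. As deposited, 4 of the 10 were higher and 1 lower, and 1 of the 6 was higher (18.1% of all genes were higher and 1.84% lower). The 2 lists had medians of 0.14 and -0.06 with scaled TPM and of 0.35 and 0.09 as deposited. Mb21d1, which encodes the DNA sensor cGAS, was at 14.9, 16.5, 18.4 and 16.9 scaled TPM in Control mice and at 25.3, 22.0, 22.7 and 21.8 in RT 3 h mice. This did not overlap, yet its log2 fold change of 0.45 ± 0.10 did not pass (adjusted p = 0.053, limma), and as deposited it was 0.66 (adjusted p = 0.0809, limma). Tbk1, Irf3, Tmem173 and Ifnb1, the kinase, factor, adaptor and cytokine downstream, had 0.25, 0.14, -0.13 and 0.61 with scaled TPM and 0.47, 0.35, 0.09 and 0.74 as deposited. Aim2, Pycard, Casp1, Il1b and Il18 of the inflammasome had 0.14, -1.11, -0.06, 0.29 and -0.60 with scaled TPM and 0.35, -0.90, 0.15, 0.51 and -0.40 as deposited. Among the ligands, Cxcl1, Cxcl2, Cxcl3, Cxcl5 and Ppbp had -0.17, -0.03, 0.33, 0.59 and -0.10 with scaled TPM and 0.04, 0.14, 0.51, 0.70 and 0.03 as deposited. Their receptor Cxcr2 had -0.18 and -0.07. The sign for Tmem173, Casp1, Cxcl1, Cxcl2 and Ppbp thus depended on the scale. Cxcl5, Ppbp and Cxcr2 were low, between 0.256 and 2.07 scaled TPM.

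No gene of the stress, metabolic and structural lists passed with scaled TPM (limma), and of the 16 tested BCL2 family genes Bid rose and Bcl2a1b fell. Of 37 tested immediate early genes, Fos had 0.69 (adjusted p = 0.0501, limma), Dusp1 0.48 and Ctgf -0.88, and the median was 0.06, with 3 higher and 2 lower at an unadjusted p under 0.05. At that p, 7.82% of all genes were higher and 9.15% lower with scaled TPM, and 18.1% and 1.84% as deposited. These shares also stand beside the counts of the lists that follow. The 30 hypoxia and glycolysis genes had a median of -0.23 with scaled TPM, with 7 lower at an unadjusted p under 0.05, and of -0.02 as deposited, with 0 lower. Ldha, lactate dehydrogenase, was at 1732, 1506, 1363 and 1426 scaled TPM in Control mice and at 1201, 1203, 1310 and 1114 in RT 3 h mice, and Pkm, pyruvate kinase, likewise did not overlap. Neither passed (adjusted p = 0.08 and 0.0799, limma), and as deposited they had -0.10 and -0.08. The 19 tested genes of the integrated stress response (Trib3 -0.55, Psat1 -0.14), the 19 Nrf2 targets (Taldo1 -0.26, Gsr 0.09), the 16 heat shock chaperones (Dnaja1 0.16, Hspa1a 0.33) and the 19 TGF-beta targets (Id1 -0.63) had medians of -0.13, -0.08, 0.07 and -0.17, with 2, 1, 0 and 2 lower and 0 higher at an unadjusted p under 0.05. As deposited these 4 lists had medians of 0.09, 0.13, 0.29 and 0.04, with 0, 2, 5 and 3 higher and 0, 0, 0 and 1 lower at that p, so the sign of the median depended on the scale for all but the chaperones. The 35 tested clustered histone genes (Hist1h4i -0.51, Hist3h2a -0.53) had a median of -0.22 and 5 lower at an unadjusted p under 0.05, in libraries made from polyadenylated RNA. The 11 tested mitochondrially encoded genes had a median of -0.36 (mt-Co1 and mt-Co2 both -0.36) and 3 lower at that p, and mt-Nd1, mt-Nd2, mt-Nd4 and mt-Atp6 were listed at 0 in all 8 libraries. The study's lists of the responses to interleukin-1 (10 tested) and of neutrophil chemotaxis (12 tested), also chosen on these samples, had 0 genes past the threshold, 1 higher and 1 lower gene in turn at an unadjusted p under 0.05, and medians of 0.10 and -0.12.

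The remaining genes with the largest scaled rises were Gli1, RP24-63G23.2, Podnl1, Zfpm1, Soga3, Sidt2 and Zfp827. Gli1, the transcription factor and target of Hedgehog signaling, was at 3.05, 5.51, 6.87 and 3.99 scaled TPM in Control mice and at 8.35, 10.2, 9.39 and 10.5 in RT 3 h mice (log2 fold change 0.97 ± 0.18, adjusted p = 0.0288, limma). Sidt2, a lysosomal membrane protein, was at 25.5, 29.1, 32.1 and 29.1 in Control mice and at 46.6, 45.2, 55.7 and 48.3 in RT 3 h mice. Sidt2 passed under each of its 17 alternatives, and Gli1 under 8 of 17. The others had log2 fold changes of 0.97, 0.84, 0.80, 0.75 and 0.66 in the order RP24-63G23.2, a long intergenic RNA, Podnl1, Zfpm1, Soga3 and Zfp827.

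With scaled TPM, mitotic genes were higher at 12 h than at 3 h. Values at the 3 RT times are given side by side, since all share the same 4 Control mice. For Cdc20 the scaled log2 fold change was -1.47 at 3 h, -0.15 at 12 h and 0.43 at 24 h, and for Ccnb1 it was -1.04, 0.14 and 0.48. The median of the G2/M and mitosis list was -0.37, 0.23 and 0.31 at these times. In the direct comparison of RT 12 h with RT 3 h, which uses no Control mouse but the same RT 3 h mice, 31 of the 60 genes were higher at 12 h and 0 lower at an adjusted p under 0.05 with scaled TPM (limma), beside 0.535% of all genes higher and 0.172% lower. As deposited, 0 of the 60 passed in either direction in that comparison. The list medians against Control were then -0.16, 0.58 and 0.57 at 3, 12 and 24 h. Cdc20 was 1.32 higher at 12 h than at 3 h on the log2 scale (adjusted p = 0.0222, limma). In the same order of times Mdm2 had 0.89, 0.62 and 0.48, Trp53inp1 1.27, 0.72 and 0.42, and Fos 0.69, -0.15 and 0.19. Fos was lower at 12 h than at 3 h by 0.84 (adjusted p = 0.0254, limma), and for Mdm2 and Trp53inp1 that difference did not pass. Lair1 had -1.63, -2.18 and -1.17.

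**Figure D5:**
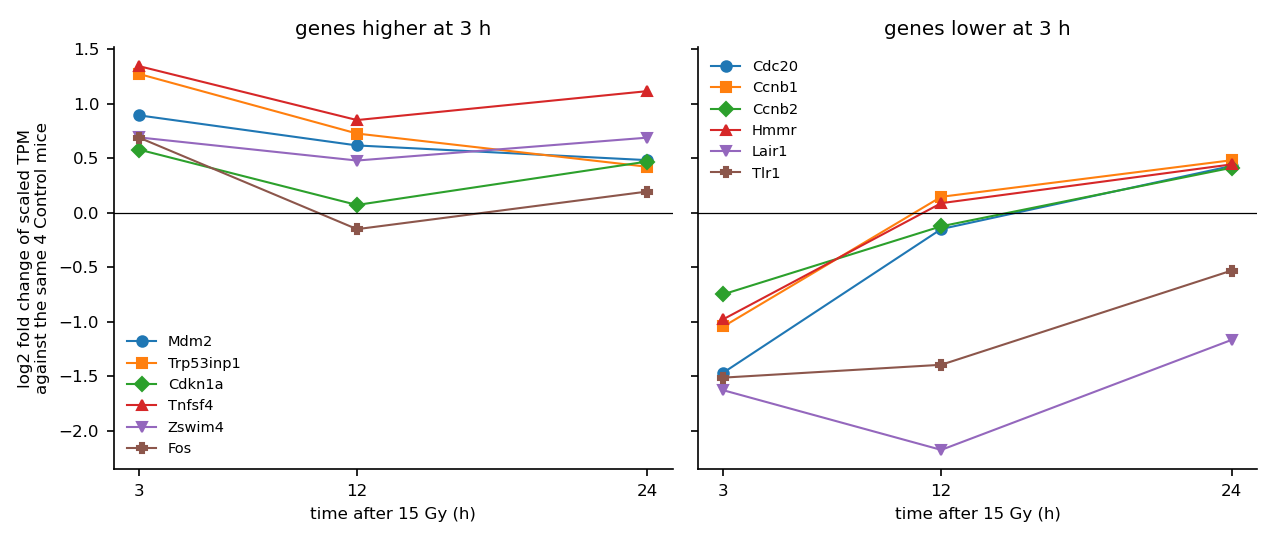
Scaled log2 fold change against the same 4 Control mice by hours after 15 Gy (3, 12 and 24) for 6 genes that were higher at 3 h (left) and 6 that were lower (right). The mitotic genes Cdc20, Ccnb1, Ccnb2 and Hmmr run from -1.47 to -0.75 at 3 h to 0.41 to 0.48 at 24 h, while Lair1 stays at -1.17 or lower.

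RM-9 tumors at 3 h, which have their own 4 Control mice, offered a separate comparison. In RM-9 tumors 237 of 14013 genes were higher (1.69%) and 169 lower (1.21%) with scaled TPM (adjusted p under 0.05, limma). Of the 99 genes called in MC-38 tumors, 88 were tested in RM-9 and 22 were called there, all 22 in the same direction, which is 22.2% of the MC-38 and 5.42% of the RM-9 calls. They included Mdm2, Trp53inp1, Zmat3, Sidt2 and Zfpm1 among the rises and Cdc20, Ccnb1, Ccnb2, Cks2, Kif22, Nek2, Tpx2, Cdca8, Bora and Gpr65 among the falls, and the pseudogenes Gm12891, Gm15452 and Gm7856, which could share reads with Cks2 and Cdc20. With scaled TPM, 21 of the 60 mitotic genes were lower in RM-9 tumors with a median of -0.25, and 9 of 17 p53 arrest targets were higher with a median of 0.60. As deposited, 0 of the 60 mitotic genes were lower there, with a median of -0.18. On that scale 6 of the 17 p53 arrest targets were higher, with a median of 0.67. The interferon-stimulated list had a scaled median of -0.52 in RM-9 tumors, with 0 of 40 past the threshold, beside 0.20 in MC-38 tumors. At an unadjusted p under 0.05, the MC-38 change minus the RM-9 change was above 0 for 1372 genes and below 0 for 215 as deposited. With scaled TPM these counts were 889 and 785. After adjustment the change differed between the models for 0 of 16141 genes as deposited (0%) and for 7 with scaled TPM (0.0434%, limma interaction). None of these 7 belonged to the mitotic or p53 lists.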

How the data were processed

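Whole MC-38 tumors were sequenced with a stranded poly(A) library kit as single-end 75-base reads. Each library's table, as the authors deposited it, gives TPM, FPKM and coverage per gene. These deposited TPM, FPKM and coverage values are normalised estimates made by the authors from aligned reads. The aligner is not given in the sources used here. The submitters' processing notes name bcl2fastq 2.17 and GRCm39, but the deposited coordinates match GENCODE M21 (GRCm38), with 91.1% of 45223 shared genes having the same start or end.

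TPM were summed per Gene ID, genes with a mean of at least 0.5 TPM over the 16 MC-38 libraries were kept, and log2(TPM + 0.5) was fitted with limma 3.58.1 (R 4.3.3) over the 4 MC-38 groups, with Benjamini-Hochberg adjustment at 0.05, as deposited and after median-ratio scaling. TPM keep no counts, so no counting intervals were given. Depth was computed from FPKM and coverage at 75 bases per read. Each library was a separate mouse per the labels. The scripts were tested on simulated data. Dunnett comparisons, other filters, pseudocounts, scalings and left-out mice were alternatives. Mouse numbers were tested as a pairing and are treated with the alternatives.

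Named genes are all genes called as deposited, the 12 largest scaled rises and falls with non-overlapping groups and a mean of at least 1 TPM, the 2 members of each list with the smallest p, and the DNA sensing and CXCR2 genes. Other genes were named after their values had been seen. 1 gene that this rule selects is not reported here. The members and lists were chosen with earlier results of these data known. Pseudogenes were matched to transcripts with BLAST 2.17.0, figures were drawn with matplotlib 3.10.9 in Python 3.11.15, and promoters came from RefSeq (GRCm38.p6).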

Additional observations from a re-analysis of the deposited data

Results flagged for a closer look

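In 14 of 244 groups of 4 mice, 1 mouse lay far from the other 3, where chance gives about 1 in 20 groups. In RT 3 h tumors, RT mouse 4 had the highest summed TPM of G2/M and mitosis genes (4026, others 2305 to 2540), of G1 cyclins and inhibitors (1193, others 995 to 1015) and of base and nucleotide excision repair genes (860, others 728 to 749). The same mouse had the lowest scaled TPM of Zswim4 (20.9, others 24.6 to 24.99) and Cdk2 (49.4, others 53.2 to 54.03). RT mouse 3 had the highest scaled TPM of Ppbp (2.07, others 0.282 to 0.303) and the highest summed TPM of colon markers (5.00) and keratinocyte markers (1.71), and RT mouse 2 had the lowest sum of TNF and NF-kB genes (1602, others 1963 to 2013).

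Among Control tumors, mouse 1 had the highest skeletal muscle sum (13773 TPM, others 24.0 to 2246) and the lowest DNA sensing sum (161, others 226 to 233), both as deposited. The median-ratio factor of Control mouse 1 was 0.65, the lowest among Control mice. With scaled TPM the Control sums of DNA sensing genes ran from 227 to 259. Control mouse 3 had the highest Bid (37.4 scaled TPM) and the lowest Bcl2a1b (21.3), and Control mouse 4 had the highest Ccnb2 (73.2).

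The scaled change at 3 h differed between MC-38 and RM-9 tumors for 7 genes (limma interaction). The log2 difference, MC-38 minus RM-9, was -0.61 for Tmem127 (adjusted p = 0.0107), 0.68 for Sipa1 (adjusted p = 0.0107), -0.42 for Tmem43 (adjusted p = 0.0136), -1.22 for Gpr31b (adjusted p = 0.0341), -1.28 for Notch3 (adjusted p = 0.0341), 0.63 for Hmces (adjusted p = 0.0475) and -0.44 for Tmem167b (adjusted p = 0.0475). Gpr31b had -1.16 in MC-38 and 0.06 in RM-9 tumors, and Notch3 had -0.32 and 0.97.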

How the results depend on the processing

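Counts of calls changed with most settings, and the causes were not tested. No log2 fold change that passed in either setting changed sign. With TPM as deposited (8 higher, 2 lower), there were 14 and 1 with no filter, 5 and 1 at a mean TPM of at least 5, 0 and 2 with only both groups in the fit (1496 and 269 at an unadjusted p under 0.05), 130 and 25 after rescaling without mitochondrially encoded genes, 43 and 56 after median-ratio scaling, and 0 and 0 by Dunnett comparisons (1224 and 158 unadjusted). With scaled TPM (43 higher, 56 lower), there were 24 and 26 with no filter, 7 and 5 with only both groups in the fit, 65 higher with upper quartile scaling, and 2 and 23 at a minimum log2 fold change of 1. Leaving out 1 mouse gave 1 to 398 higher and 0 to 28 lower as deposited, and 6 to 60 and 2 to 85 with scaled TPM. Counts as deposited moved over 1.5 times without any single mouse except, for the higher genes, RT mouse 4. The total of 99 scaled calls fell to 8 to 24 without Control mouse 1, 2 or 4 or RT mouse 1, 2 or 3. The interaction with tumor model went from 0 to 7 genes under median-ratio scaling. Mitotic genes lower with scaled TPM (8) numbered 32 without RT mouse 4, which was picked on these same values. They numbered 0 when either Control mouse 4 or RT mouse 2 was left out, and 0 with only both groups in the fit. Of genes that passed in neither setting, 9 changed sign. The TPM values as deposited gave, under median-ratio scaling, Psat1 (-0.14), Tmem173 (-0.13), Casp1 (-0.0638), Cxcl1 (-0.17), Cxcl2 (-0.0262) and Ppbp (-0.10), after rescaling without mitochondrially encoded genes Psat1 (-0.00738), Cxcl1 (-0.0420) and Ppbp (-0.0447), by Dunnett comparisons Cxcl1 (-0.0330), and with a pseudocount of 0.1 Ppbp (-0.0516). Leaving out 1 mouse as deposited gave -0.0871 to 0.17 for Psat1, -0.14 to 0.0419 for Taldo1, -0.30 to 0.23 for Cxcl1, -0.0872 to 0.36 for Cxcl2, -0.41 to 0.22 for Ppbp and -0.15 to 0.0656 for Cxcr2. With scaled TPM it gave -0.0212 to 0.24 for Aim2, -0.25 to 0.17 for Cxcl2 and -0.52 to 0.0731 for Ppbp. The median shift of all genes ranged from 0.07 without Control mouse 1 to 0.26 without Control mouse 3. With the mouse number as a replicate block there were 5 higher and 0 lower genes as deposited and 10 and 10 with scaled TPM, 19 of the 20 among the 99. The deviations of same-numbered mice correlated at 0.165, -0.470, 0.214 and -0.205, beside -0.420 to 0.527 between mice of different numbers. With so few mice these correlations cannot exclude a pairing by number. Since TPM keep no counts, the counting error of low genes is unknown.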
